A study of Mus musculus with 6 samples.

Results

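The 46 mitosis and G2/M genes encode the kinases, cyclins, kinesin motors, kinetochore proteins and cytokinesis factors that take a cell into, through and out of division. They are named by these roles, by a rule that uses no measured value, but were chosen with earlier results of these data known. All 46 were found among the 52550 genes listed in each sample. RNA was sequenced from colon epithelium of 3 Zfp90fl/fl and 3 Zfp90ΔIEC samples of male C57BL/6 mice. The listed age of 6 to 8 weeks cannot be the age at sampling, since the mice were killed on day 80 of the experiment. In Zfp90ΔIEC mice the floxed part of Zfp90, a zinc finger gene, is removed by Villin-cre, which is active in intestinal epithelial cells, and the Zfp90fl/fl littermates served as controls. Mice of both genotypes were treated with AOM-DSS. The carcinogen azoxymethane (AOM) was injected at 10 mg/kg, and from 5 days later dextran sulfate sodium (DSS), which injures the colon, was given at 2% for 7 days and then replaced by water for 14 days. There were 3 such cycles, the mice were killed on day 80, and no untreated group was included. The genotypes were housed apart after weaning, and cage therefore cannot be told apart from genotype. The labels do not say that each sample came from a separate animal, and p-values therefore measure only the spread between these samples. They also do not give the tumor content of a sample.

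The genotype field of Zfp90ΔIEC replicates 2 and 3 names Zfp91 and Zfp92 in place of Zfp90, and these samples were grouped by their titles. Levels are given in FPKM, fragments scaled to the length of the transcript and to the mapped total of the sample, so that genes of unequal length can be set side by side. Zfp90 was at 0.630, 0.490 and 0.569 FPKM in Zfp90fl/fl replicates 1, 2 and 3. In Zfp90ΔIEC replicates 1, 2 and 3 it was at 0.0846, 0.195 and 0.166 FPKM, each below every Zfp90fl/fl value. The summary over all 46 genes is given with and without replicates 2 and 3, as is the range of the role group medians. Epithelial keratin 8 (Krt8) was at 2635 to 3071 FPKM in the 6 samples, and the pan-leukocyte gene Ptprc at 0.306 to 0.812 FPKM. Sequencing depth was not listed and was estimated from the smallest steps between low values at 26.1 to 28.5 M fragments per sample. Each of the 46 genes then rested on about 91 to 8649 fragments per sample, with a counting error of at most 10.5% of the value. Zfp90 rested on only about 6 to 44 fragments per sample, with a counting error of up to 39.9%.

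As background, entry into mitosis is driven by Cdk1 bound to its cyclins, after which the spindle forms, kinetochores attach chromosomes to it and a checkpoint delays anaphase until every chromosome is attached. Most of these genes are transcribed mainly late in the cell cycle. DREAM, a complex that holds them silent in resting cells, and the complex of MYBL2, MuvB and FOXM1, which activates them, act at a promoter element called the cell cycle homology region (CHR), whereas the factor NF-Y acts at nearby CCAAT boxes. In the colon, dividing epithelial cells lie in the lower part of the crypts, below the differentiated colonocytes.

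To show how these elements lie, 5 stretches of 100 bases directly before the RefSeq start are printed, each from a gene with both elements (RefSeq, GRCm38.p6, each read 5′ to 3′ on the strand of its gene). Capitals mark the CHR core TTTGAA and the box CCAAT, or their reverse complements TTCAAA and ATTGG. The stretch of Cdk1, the kinase of mitotic entry, is chr10:69352913-69353012 (minus strand), and that of Top2a, the topoisomerase that untangles chromosomes, is chr11:99024190-99024289 (minus strand). Cdc20 and Ube2c, both of which work with the anaphase-promoting complex, are shown at chr4:118437344-118437443 (minus strand) and chr2:164769829-164769928 (plus strand). Espl1, the protease separase that cuts cohesin, is shown at chr15:102296193-102296292 (plus strand).
Cdk1: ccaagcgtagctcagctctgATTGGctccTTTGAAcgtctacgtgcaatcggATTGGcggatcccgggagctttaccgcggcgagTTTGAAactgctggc
Top2a: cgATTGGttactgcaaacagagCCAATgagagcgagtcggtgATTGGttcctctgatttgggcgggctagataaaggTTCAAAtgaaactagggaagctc
Cdc20: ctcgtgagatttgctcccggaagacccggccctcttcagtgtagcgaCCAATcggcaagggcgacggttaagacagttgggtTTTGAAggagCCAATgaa
Ube2c: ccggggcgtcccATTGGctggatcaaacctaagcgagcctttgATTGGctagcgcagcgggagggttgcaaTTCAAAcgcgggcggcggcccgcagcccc
Espl1: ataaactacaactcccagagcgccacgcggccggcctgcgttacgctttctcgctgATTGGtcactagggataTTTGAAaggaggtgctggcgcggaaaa

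A window from 250 bases before to 50 bases after the start was on hand for 39 of the 46 genes. Ccna2, Aurkb, Kif20a, Cdc25c, Foxm1, Tpx2 and Incenp were without one. TTTGAA on either strand was present in 27 of the 39 windows (69.2%), against 20.2% of all 27025 genes with a window and 14.3% of the 8418 of them that were tested. Counting only matches that began within 50 bases of the start, 25 of 39 genes (64.1%) had one, against 5.72% of all genes and 3.9% of tested genes. CCAAT on either strand was present in 29 windows (74.4%), against 41.1% of all genes and 43.3% of tested genes. At least 2 such matches were held by 20 windows (51.3%), against 13.3% of all genes and 17.3% of tested genes. Both elements occurred in 24 windows (61.5%), against 8.97% of all genes. The Cdk1 stretch holds CHR matches 71 and 15 bases before the start with CCAAT matches at 80 and 48. For 6 of the 39 genes (Cenpa, Pttg1, Kif4, Cdca3, Cdca8 and Kif2c) the RefSeq start lay more than 100 bases inside the span of the gene in GENCODE, 270 bases for Pttg1, and their windows do not show the promoter at the start of that span. Among the other 33 genes, 21 (63.6%) had TTTGAA within 50 bases of the RefSeq start. These are matches of letters, not sites shown to be bound.

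**Figure D1:**
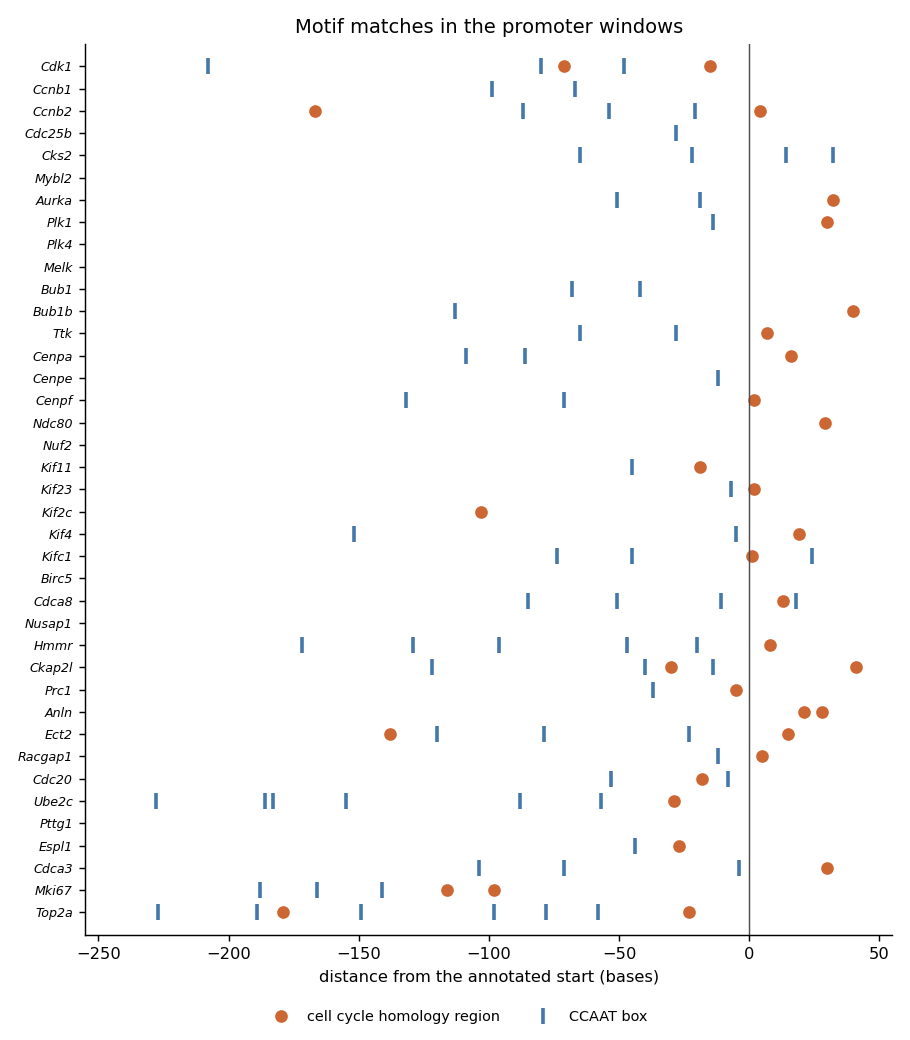
Matches of TTTGAA (cell cycle homology region, points) and CCAAT (bars), either strand, in the promoter windows of 39 genes, by distance in bases from the RefSeq start. Most TTTGAA matches lie within 50 bases of the start (25 of 39 genes have one there) and most CCAAT matches lie before it.

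In the colon epithelium of Zfp90ΔIEC mice, 45 of the 46 genes had a higher mean FPKM than in Zfp90fl/fl mice, and Pttg1 alone had a lower one. The median difference was 35.4% of the Zfp90fl/fl mean, with a range of -12.0% to 53.9%. On the log2(FPKM + 1) scale the median fold change was 0.37 (quartiles 0.29 and 0.41), and that of all 11564 genes tested was -0.02 (quartiles -0.10 and 0.07). Of all genes tested, 42.8% lay above 0 and 2.9% lay above the median of the mitotic genes. All 46 passed the filter of at least 1 FPKM in 3 samples, and their means ran from 1.69 FPKM (Plk4 in Zfp90fl/fl) to 38.1 FPKM (Cks2 in Zfp90ΔIEC). More RNA per dividing cell and more dividing cells cannot be told apart in bulk RNA.

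Every Zfp90ΔIEC sample lay above every Zfp90fl/fl sample for 37 of the 46 genes (80.4%), whereas 8.73% of all genes tested did so. In 1 gene, Pttg1, every Zfp90ΔIEC sample lay below, as in 12.6% of all genes tested. The values of the groups overlapped in the other 8. An unadjusted p under 0.05 with a higher level in Zfp90ΔIEC was found for 39 of the 46 (84.8%) and for 6.56% of all genes tested. After Benjamini-Hochberg adjustment over all genes in limma, 1 of the 46 passed 0.05, the proliferation antigen Mki67, against 0.199% of all genes tested (23 genes, 8 higher and 15 lower). A further 9 genes had an adjusted p under 0.1, and the adjusted p of the 46 ran up to 0.449.

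**Figure D2:**
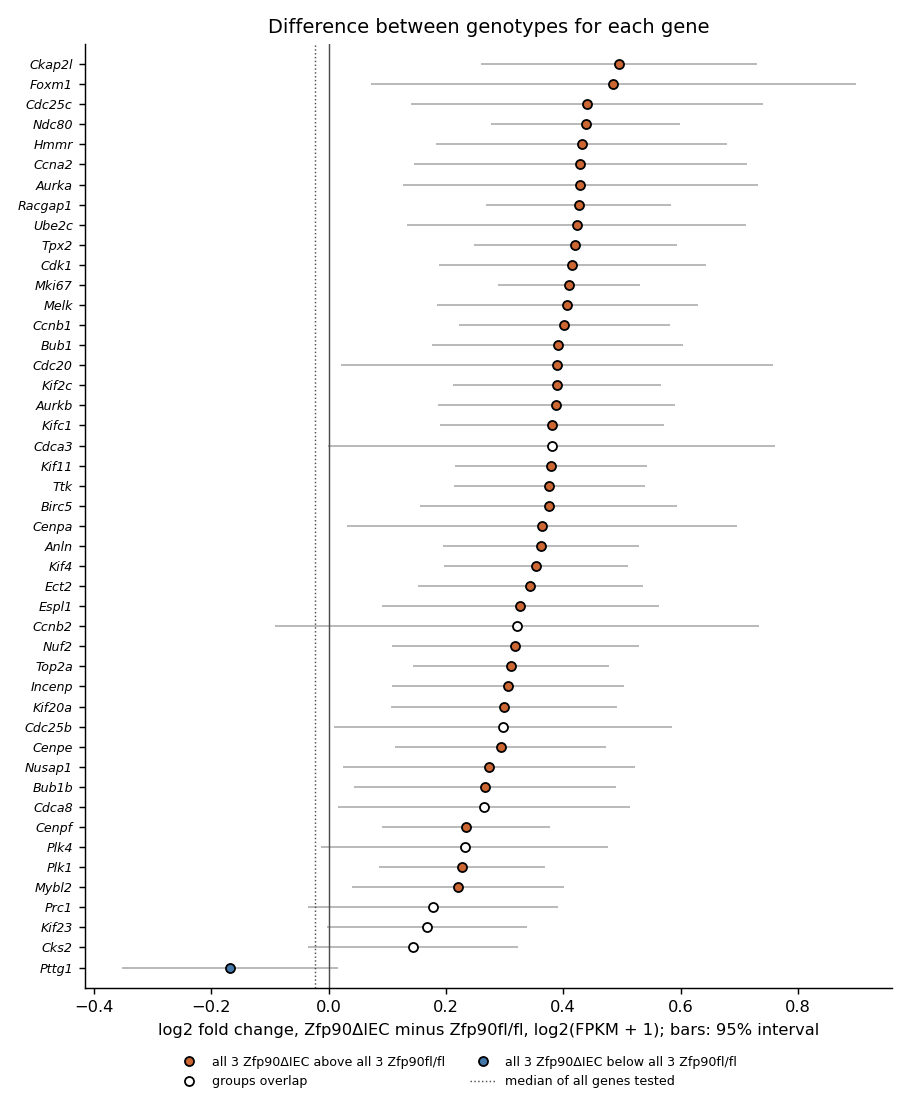
Log2 fold change (Zfp90ΔIEC minus Zfp90fl/fl, log2(FPKM + 1) scale) of each of the 46 genes with its 95% interval from limma, and the median of all genes tested as a dotted line. Filled points mark the 38 genes whose groups do not overlap, 37 of them higher and Pttg1 lower, and open points the 8 that overlap.

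The 6 samples did not contribute equally. The summed FPKM of the 46 genes was 326.0, 350.3 and 356.0 in Zfp90fl/fl replicates 1, 2 and 3, and 397.3, 474.2 and 455.8 in Zfp90ΔIEC replicates 1, 2 and 3. The groups did not overlap, and the means were 344.1 ± 15.9 and 442.5 ± 40.1 (SD, n = 3 each), a ratio of 1.29. Zfp90ΔIEC replicate 1 held the lowest Zfp90ΔIEC value for 42 of the 46 genes, as the plot of each gene by sample shows. Zfp90fl/fl replicate 1 held the lowest value of all 6 samples for 30 of the 46 genes. Relative to the Zfp90fl/fl mean of each gene, the median gene stood at 96.0%, 101% and 104% in the Zfp90fl/fl replicates and at 119%, 142% and 139% in the Zfp90ΔIEC replicates. Of the 46 genes, 37 exceeded all Zfp90fl/fl samples in Zfp90ΔIEC replicate 1, 44 in replicate 2 and 45 in replicate 3.

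Without Zfp90ΔIEC replicates 2 and 3, the samples whose genotype field names another gene, the median log2 fold change was 0.21 and the log2 ratio of the summed FPKM was 0.208 in place of 0.363. The direction stayed, with 45 of 46 genes higher. In the remaining Zfp90ΔIEC sample 37 genes lay above all Zfp90fl/fl samples. That count cannot fall when Zfp90ΔIEC samples are left out, and it is therefore no check. Of the single genes, 25 moved by more than 1.5 times, and the log2 fold changes of the 46 then ran from -0.25 (Pttg1) to 0.44 (Ndc80). The role group medians lay between 0.32 (centromere and kinetochore) and 0.43 (spindle assembly factors) with all samples. Without Zfp90ΔIEC replicates 2 and 3 they lay between 0.10 (anaphase and mitotic exit) and 0.29 (spindle checkpoint kinases), with spindle assembly factors at 0.28. This fit assumes that the lone sample varies as the Zfp90fl/fl samples do, and only its effect sizes are given.

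**Figure D3:**
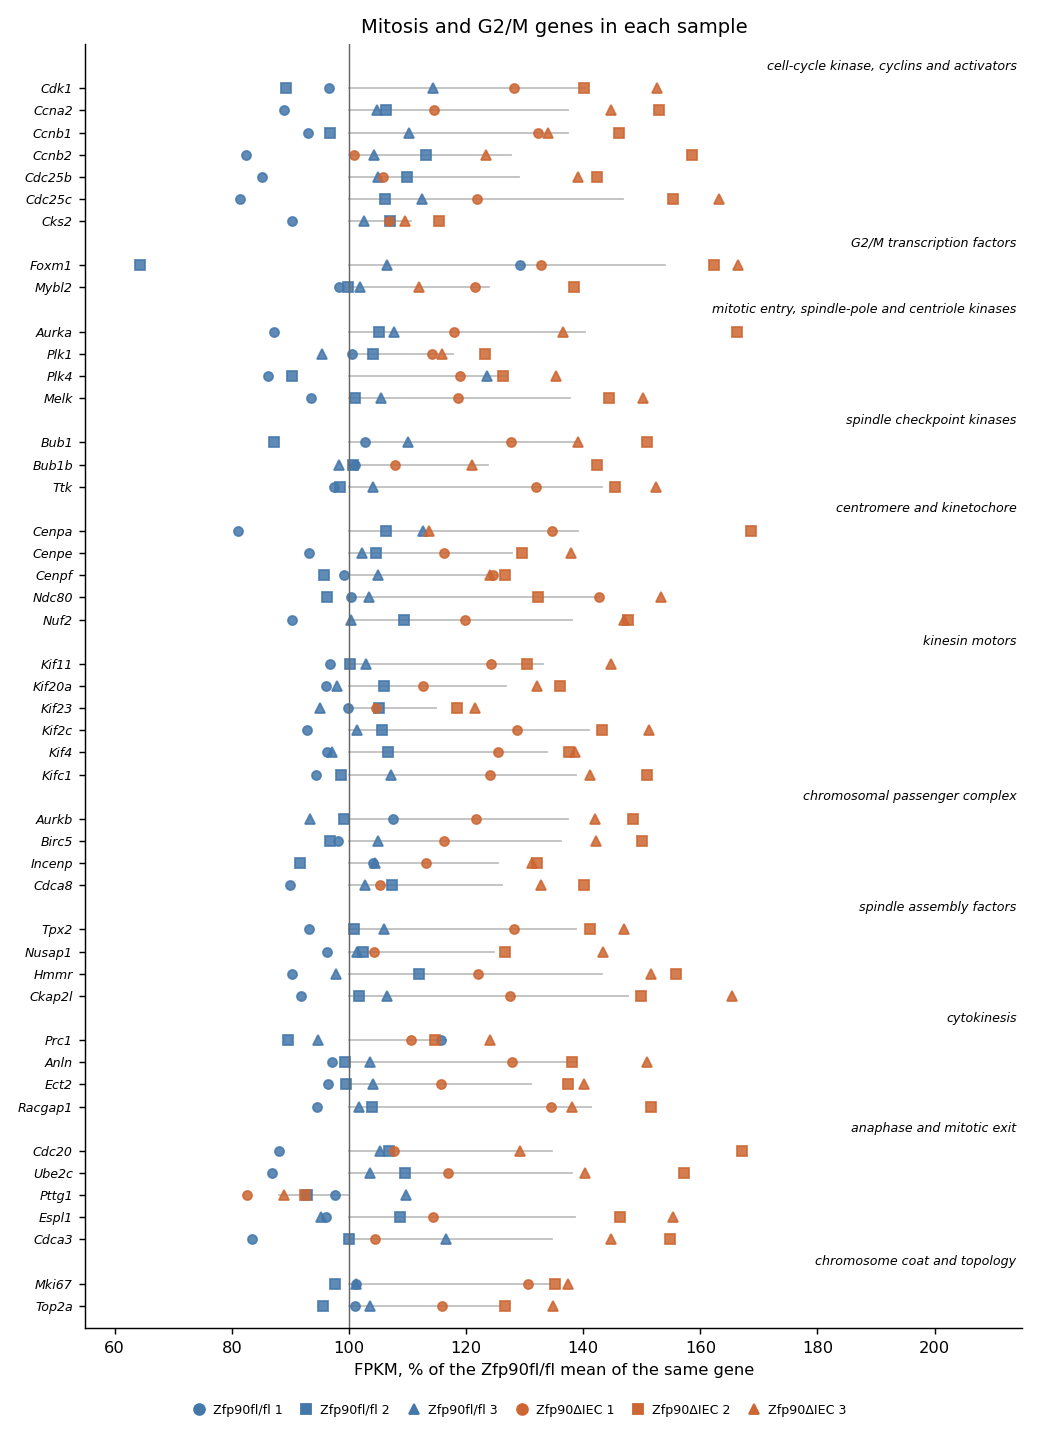
FPKM of each of the 46 genes in each sample as a percentage of the gene's Zfp90fl/fl mean (vertical line at 100), grouped by role, with a gray line from 100 to the Zfp90ΔIEC mean. The median gene stands at 119%, 142% and 139% in Zfp90ΔIEC replicates 1, 2 and 3, and Pttg1 is the gene with all Zfp90ΔIEC points on the left.

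Among the cyclin-dependent kinase, its cyclins and activators, all 7 genes had a higher mean in Zfp90ΔIEC and 4 did so without overlap (median log2 fold change 0.40). Cdk1, the catalytic kinase, was at 4.44, 4.10 and 5.26 FPKM in Zfp90fl/fl and at 5.90, 6.45 and 7.02 FPKM in Zfp90ΔIEC. Its log2 fold change was 0.42 (standard error, SE, 0.0961, adjusted p = 0.13). Ccnb1, the cyclin B1 that activates Cdk1, was at 5.46, 5.68 and 6.47 FPKM against 7.76, 8.58 and 7.87 FPKM. The groups were apart for both genes, and for Ccnb1 the log2 fold change was 0.40 (SE 0.0756, adjusted p = 0.0923). Reads of Ccnb1 could be shared with the annotated copy Ccnb1-ps, which was listed at 0.746 to 1.14 FPKM. Ccna2, encoding cyclin A2 (15.8 ± 1.53 against 21.7 ± 3.20 FPKM, SD, n = 3), and Cdc25c, a phosphatase that activates Cdk1 (3.18 ± 0.522 against 4.67 ± 0.699 FPKM), were also higher without overlap. The others of this group overlapped. Ccnb2, the cyclin B2 gene, was at 12.3, 17.0 and 15.6 FPKM against 15.1, 23.8 and 18.5 FPKM, with Zfp90ΔIEC replicate 1 below Zfp90fl/fl replicates 2 and 3 (log2 fold change 0.32, SE 0.174, adjusted p = 0.449). Ccnb2 depended on single samples, with 0.20 without Zfp90fl/fl replicate 1, 0.16 without Zfp90ΔIEC replicate 2 and 0.02 without Zfp90ΔIEC replicates 2 and 3. Cks2, a small protein that binds Cdk1 and has the highest level of the 46, was at 31.1, 36.9 and 35.3 FPKM against 36.8, 39.7 and 37.7 FPKM (log2 fold change 0.14, and 0.08 without Zfp90fl/fl replicate 1). Cdc25b, another activating phosphatase, had means of 3.94 ± 0.515 and 5.08 ± 0.797 FPKM.

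Both transcription factors of the group act on G2/M promoters, and both were higher without overlap. Foxm1 was at 3.03, 1.51 and 2.50 FPKM in Zfp90fl/fl and at 3.11, 3.81 and 3.90 FPKM in Zfp90ΔIEC, a difference of 53.9% that rested largely on Zfp90fl/fl replicate 2 and was 30.6% without it. Its spread was also wide, since Zfp90fl/fl replicate 2 was low and replicate 1 lay 0.0875 FPKM below the lowest Zfp90ΔIEC value (log2 fold change 0.49, SE 0.174, adjusted p = 0.279, and 0.29 without Zfp90fl/fl replicate 2). Mybl2 had means of 2.30 ± 0.0400 and 2.85 ± 0.308 FPKM (SD, n = 3).

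All 4 kinases of mitotic entry, spindle poles and centrioles had higher means in Zfp90ΔIEC. Aurka, the Aurora A kinase of the spindle poles, was at 6.23, 7.51 and 7.69 FPKM against 8.42, 11.9 and 9.76 FPKM. No Zfp90ΔIEC value reached down into the Zfp90fl/fl range, and the log2 fold change was 0.43 (SE 0.128, adjusted p = 0.206). Without Zfp90ΔIEC replicates 2 and 3 that value was 0.22. Melk, a kinase abundant in dividing cells, differed by 37.8% of its Zfp90fl/fl mean. Plk1, which acts from mitotic entry to cytokinesis, differed by 17.8%, and both were without overlap. Plk4, which starts centriole duplication, was the lowest of the 46 and overlapped (1.69 ± 0.346 against 2.15 ± 0.139 FPKM).

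The 3 spindle checkpoint kinases were all higher without overlap. Bub1, which marks centromeric chromatin, was at 3.81, 3.23 and 4.08 FPKM against 4.73, 5.59 and 5.15 FPKM (log2 fold change 0.39, SE 0.0906, adjusted p = 0.131). Ttk, the kinase at the top of the checkpoint, was at 2.18, 2.21 and 2.33 FPKM against 2.96, 3.26 and 3.42 FPKM (log2 fold change 0.38, SE 0.0685, adjusted p = 0.0873). The Zfp90fl/fl values of Ttk lay close together and below the Zfp90ΔIEC values. Bub1b, which encodes BubR1, had means of 7.45 ± 0.107 and 9.22 ± 1.30 FPKM, and its log2 fold change of 0.27 was 0.17 without Zfp90ΔIEC replicate 2.

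At the centromere and kinetochore, all 5 genes were higher without overlap. Cenpa, the histone H3 variant of centromeres, was at 2.37, 3.11 and 3.30 FPKM against 3.94, 4.94 and 3.33 FPKM, a separation of 0.0291 FPKM (log2 fold change 0.36, adjusted p = 0.309). Ndc80, which with Nuf2 forms the microtubule-binding end of the kinetochore, was at 5.01, 4.79 and 5.16 FPKM against 7.12, 6.59 and 7.64 FPKM. It had the next smallest p of the 46 after Mki67, with a log2 fold change of 0.44 (SE 0.0678, adjusted p = 0.0664). Nuf2 differed by 38.1% of its Zfp90fl/fl mean, the kinetochore kinesin Cenpe by 27.9% and the large kinetochore protein Cenpf by 25.2%.

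Of the 6 kinesin motors, 5 were higher without overlap. Kif11, which pushes spindle poles apart, was at 9.88, 10.2 and 10.5 FPKM against 12.7, 13.3 and 14.8 FPKM (log2 fold change 0.38, SE 0.0689, adjusted p = 0.0873). Kif2c, which takes microtubules apart at centromeres, was at 2.87, 3.27 and 3.14 FPKM against 3.98, 4.43 and 4.68 FPKM (log2 fold change 0.39, adjusted p = 0.0932). The chromosome-arm motor Kif4 was at 4.38, 4.85 and 4.42 FPKM against 5.70, 6.26 and 6.30 FPKM (log2 fold change 0.35, adjusted p = 0.0923). The groups did not overlap for any of these motors, and the annotated copy Kif4-ps was listed at 0 in all 6 samples. Kifc1, a minus-end motor that bundles spindle poles, differed by 38.7% and Kif20a, a motor of the central spindle, by 26.9%. Kif23, the motor subunit of centralspindlin, overlapped slightly (5.06 ± 0.256 against 5.82 ± 0.457 FPKM).

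The chromosomal passenger complex joins the kinase Aurkb to Incenp, Birc5 (survivin) and Cdca8 (borealin) and corrects faulty attachments. Aurkb was at 5.31, 4.90 and 4.61 FPKM against 6.01, 7.34 and 7.01 FPKM (log2 fold change 0.39, SE 0.0854, adjusted p = 0.121, and 0.24 without Zfp90ΔIEC replicates 2 and 3). The same separation held for Birc5, which differed by 36.2%, and for Incenp, which differed by 25.4%. Cdca8 differed by 26.1%, but its lowest Zfp90ΔIEC value lay under the highest Zfp90fl/fl value.

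The 4 spindle assembly factors had the highest median log2 fold change of the role groups (0.43) and were all without overlap. Tpx2, which activates Aurora A on spindle microtubules, was at 6.47, 7.00 and 7.36 FPKM against 8.90, 9.80 and 10.2 FPKM (log2 fold change 0.42, SE 0.0733, adjusted p = 0.0834). Ckap2l, a spindle protein, had the largest log2 fold change of the 46 on the log2(FPKM + 1) scale, 0.50 (SE 0.0992, adjusted p = 0.104). Its means were 6.62 ± 0.496 and 9.77 ± 1.26 FPKM, a ratio of 1.48, and by this ratio Foxm1 was larger (1.54). Hmmr, which organises spindle microtubules, differed by 43.1% and Nusap1, which bundles them, by 24.7% (15.4% without Zfp90ΔIEC replicate 3).

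For cytokinesis, 3 of 4 genes were higher without overlap. Racgap1, the partner of Kif23 in centralspindlin, was at 4.68, 5.14 and 5.03 FPKM against 6.66, 7.50 and 6.84 FPKM (log2 fold change 0.43, SE 0.0666, adjusted p = 0.0664). Anln, the contractile-ring scaffold anillin, was at 2.70, 2.77 and 2.89 FPKM against 3.56, 3.85 and 4.21 FPKM (log2 fold change 0.36, SE 0.0705, adjusted p = 0.0969). Neither overlapped between genotypes, and Ect2, which switches on RhoA at the division plane, differed by 31.1%. Prc1, which crosslinks the microtubules of the central spindle, was at 4.01, 3.11 and 3.29 FPKM against 3.84, 3.98 and 4.31 FPKM. The highest Zfp90fl/fl value of Prc1 lay above 2 of the 3 Zfp90ΔIEC values (log2 fold change 0.18, SE 0.0902, adjusted p = 0.421).

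The 5 genes of anaphase and mitotic exit were the most mixed group, and theirs was the only role group whose summed FPKM overlapped between genotypes. Cdc20, which activates the anaphase-promoting complex, was at 13.5, 16.4 and 16.2 FPKM against 16.5, 25.7 and 19.9 FPKM. Zfp90ΔIEC replicate 1 of Cdc20 lay only 0.121 FPKM above the highest Zfp90fl/fl value (log2 fold change 0.39, SE 0.155, adjusted p = 0.321). The value for Cdc20 was 0.23 without Zfp90ΔIEC replicate 2 and 0.10 without Zfp90ΔIEC replicates 2 and 3. Ube2c, the ubiquitin-conjugating enzyme of that complex, differed by 38.1%, and Cdca3, which aids mitotic entry, differed by 34.6% with overlap. Espl1, which cuts cohesin at anaphase, was at 1.95, 2.21 and 1.94 FPKM against 2.32, 2.97 and 3.16 FPKM (log2 fold change 0.33, adjusted p = 0.214). Pttg1, which holds Espl1 inactive until anaphase, was at 12.0, 11.4 and 13.5 FPKM against 10.2, 11.4 and 10.9 FPKM, and was named after its values were seen. Its log2 fold change was -0.17 (95% interval -0.35 to 0.02, adjusted p = 0.387), and -0.10 without Zfp90fl/fl replicate 3. The highest Zfp90ΔIEC and the lowest Zfp90fl/fl value of Pttg1 were nearly equal, and under quantile normalization or median ratio scaling its groups overlapped.

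Mki67, whose protein coats mitotic chromosomes and is the usual stain for dividing cells, rose in Zfp90ΔIEC. It was at 22.6, 21.8 and 22.6 FPKM in Zfp90fl/fl and at 29.1, 30.2 and 30.7 FPKM in Zfp90ΔIEC (22.3 ± 0.452 and 30.0 ± 0.772 FPKM, SD, n = 3). The gap between the groups was 6.54 FPKM, larger than the range within each group, and the log2 fold change was 0.41 (95% interval 0.29 to 0.53, adjusted p = 0.0478 from limma). Mki67 (ENSMUSG00000031004, chromosome 7, 135689784 to 135716361, minus strand, GRCm38) rested on the most fragments of the 46. The adjusted p lay between 0.0409 and 0.163 under the other settings that kept several samples per group. It stayed under 0.05 only with median ratio scaling. Top2a was at 15.3, 14.5 and 15.7 FPKM against 17.5, 19.1 and 20.4 FPKM (log2 fold change 0.31, adjusted p = 0.127), also without overlap.

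Genes of the same and of the neighboring cell cycle phases were read in the same fit. Of 92 other mitotic genes, among them condensins, further kinetochore proteins and tubulins, 87 were tested and 80 had a higher level in Zfp90ΔIEC. None passed the adjusted threshold in limma, 53 (60.9%) had an unadjusted p under 0.05 in the higher direction, and 59 (67.8%) were higher without overlap, with a median log2 fold change of 0.23. The smallest p was that of Ncaph, a condensin subunit, at 5.05, 4.65 and 5.09 FPKM against 6.68, 7.29 and 6.99 FPKM (log2 fold change 0.43, adjusted p = 0.0638). Of 38 S-phase genes, which serve DNA replication, 37 were higher, 24 (63.2%) without overlap, and none passed the adjusted threshold, while 24 had an unadjusted p under 0.05. Their median log2 fold change was 0.25, and E2f8, a repressor of E2F target genes, had the smallest p (log2 fold change 0.49, adjusted p = 0.086). The distributions of fold changes show the S-phase and other mitotic genes between all genes and the 46. The difference between the lists was not tested.

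The S-phase sum was 238.2, 212.6 and 226.1 FPKM in Zfp90fl/fl and 272.0, 295.6 and 268.9 FPKM in Zfp90ΔIEC. Zfp90ΔIEC replicate 1, which was lowest for most mitotic genes, was thus not the lowest for the S-phase sum. The ratio of the mitotic to the S-phase sum was 1.37, 1.65 and 1.57 in Zfp90fl/fl and 1.46, 1.60 and 1.70 in Zfp90ΔIEC, and these ranges overlapped.

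G1 cyclins, kinases and inhibitors were mixed. Of the 15 tested, 10 were higher and 5 lower with a median log2 fold change of 0.04. None passed the adjusted threshold, and 2 had an unadjusted p under 0.05. The smallest p was that of Ccnd3, encoding cyclin D3, at 2.58, 2.99 and 2.20 FPKM against 3.91, 3.78 and 3.55 FPKM (log2 fold change 0.41, adjusted p = 0.127). The 9 partners of the DREAM and MYBL2 complexes that bind G2/M promoters had a median of -0.04, with 3 higher and 6 lower, none past the adjusted threshold and 1 with an unadjusted p under 0.05. Lin37, a MuvB subunit, had the smallest p of these, at 9.30, 9.76 and 9.11 FPKM against 7.54, 7.99 and 8.90 FPKM (log2 fold change -0.19, adjusted p = 0.306).

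**Figure D4:**
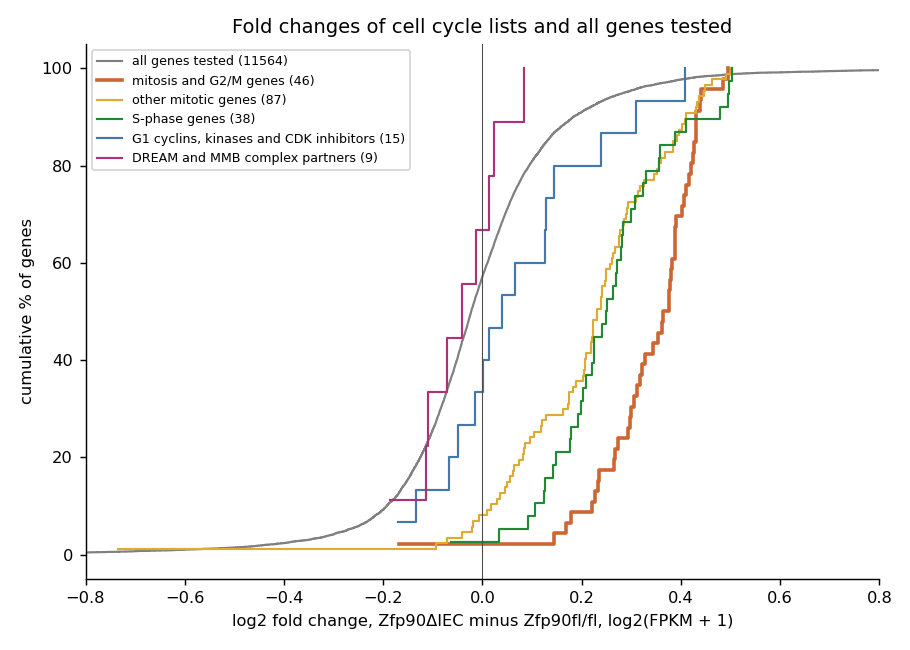
Cumulative percentage of genes by log2 fold change (Zfp90ΔIEC minus Zfp90fl/fl, log2(FPKM + 1) scale, shown from -0.8 to 0.8) for the 46 genes, 4 cell cycle lists and all 11564 genes tested. The medians are 0.37 for the 46 genes, 0.25 for S-phase genes, 0.23 for other mitotic genes, 0.04 for the G1 list, -0.04 for the DREAM partners and -0.02 for all genes.

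The motif classes within the 46 were also compared. The 25 genes with TTTGAA within 50 bases of the start had a median log2 fold change of 0.36 and the 14 without had 0.31. Over all genes tested, the 328 with this match had a median of 0.02 and the 8090 without had -0.02. These are descriptions, with no test.

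Levels of cell type markers are given beside these results. The summed FPKM of 10 pan-epithelial markers was 7230, 8144 and 7730 in Zfp90fl/fl and 6987, 7461 and 7686 in Zfp90ΔIEC, with overlap, and 9 of the 10 were lower and 1 higher in Zfp90ΔIEC (median log2 fold change -0.04). Per 1000 FPKM of that sum, the 46 genes held 45.1, 43.0 and 46.1 FPKM against 56.9, 63.6 and 59.3 FPKM, again without overlap. The 10 crypt stem cell markers summed to 108 to 119 FPKM in Zfp90fl/fl and to 103 to 146 FPKM in Zfp90ΔIEC, with the highest sum in Zfp90ΔIEC replicate 1, the sample with the smallest mitotic sum of its group. Of the 7 stem cell markers tested, 3 were higher and 4 lower, none with an unadjusted p under 0.05, and Axin2, a target of Wnt signaling, had the smallest p (log2 fold change -0.31, adjusted p = 0.395).

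Differentiated colonocyte markers were higher in 10 of 12 genes, with sums of 6520 to 8377 FPKM against 9397 to 13567 FPKM, most of it the carbonic anhydrase Car1. Ms4a12 was an exception, at 16.6, 18.2 and 19.2 FPKM against 10.2, 11.6 and 12.7 FPKM (log2 fold change -0.60, adjusted p = 0.0664). All 8 goblet cell markers were higher (median log2 fold change 0.39), with sums of 2077 to 2516 FPKM against 2699 to 3617 FPKM. Their leading gene by p was the mucus lectin Zg16 (log2 fold change 0.52, adjusted p = 0.117), and Krt18, the 1 pan-epithelial marker that was higher, had the smallest p of that list (log2 fold change 0.21, adjusted p = 0.24). No gene of these lists passed the adjusted threshold in limma without the replicate block (4 colonocyte markers did with it), while 7 colonocyte, 3 goblet cell and 1 pan-epithelial marker had an unadjusted p under 0.05.

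Leukocyte markers went the other way. Of 26 found, 7 were tested and all 7 were lower in Zfp90ΔIEC, none past the adjusted threshold and 2 with an unadjusted p under 0.05. Among them Laptm5, a lysosomal protein of leukocytes, had the smallest p, at 1.67, 1.48 and 1.52 FPKM against 0.453, 0.620 and 0.830 FPKM (log2 fold change -0.65, adjusted p = 0.0664). Laptm5 passed the filter only through its Zfp90fl/fl values, the group where it was higher. Its p and its place among the 7 are therefore no support for a difference. The sum of the 26 was 45.0, 42.3 and 72.4 FPKM against 35.0, 31.1 and 44.6 FPKM, with overlap. Most of that sum was Ly6g, at 21.9 to 44.7 FPKM, and it therefore says little about the other leukocyte markers. S100a8 and S100a9, the calprotectin genes of neutrophils, were listed at 0 in all 3 Zfp90ΔIEC samples and at 0.236 to 1.63 FPKM in Zfp90fl/fl. Both were too low to pass the filter, were not tested and were named after their values were seen. Ly6g, which the study stained as a neutrophil marker, overlapped between the groups (24.8, 24.0 and 44.7 against 25.7, 21.9 and 32.9 FPKM). The 13 stromal and endothelial markers summed to 2.84 to 4.18 FPKM in all samples, and Pdgfrb, a pericyte receptor, had the smallest p of them (log2 fold change -0.25, adjusted p = 0.302). The part of these cell types in the levels of the mitotic genes was not tested.

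**Figure D5:**
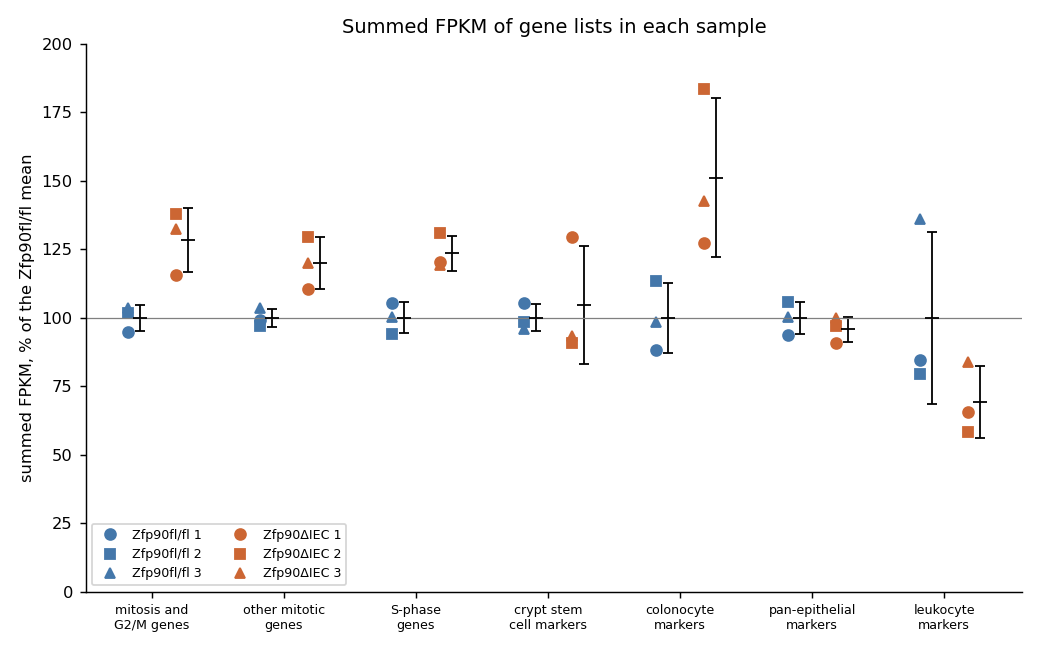
Summed FPKM of the 46 mitosis and G2/M genes and of 6 comparison lists in each sample, as a percentage of the Zfp90fl/fl mean, with mean and SD (n = 3 each) beside the points. The sums of the 46 genes, the other mitotic, S-phase and colonocyte lists are higher in all 3 Zfp90ΔIEC samples, and those of stem cell, pan-epithelial and leukocyte markers overlap. The leukocyte sum is mostly Ly6g.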

How the data were processed

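RNA of isolated colon epithelium was measured in 3 Zfp90fl/fl and 3 Zfp90ΔIEC samples. The authors deposited an FPKM per gene in a table per sample. The unit was inferred from the values and the methods, since the tables do not name it. The submitters' processing notes name FastQC, STAR 2.5, Cuffnorm, DESeq 1.22.1 and the build mm9, whereas the study's methods name TopHat, Cuffdiff and a human genome, and the tables list mouse Ensembl identifiers. The methods also state another DSS concentration than the labels. Libraries were strand-specific per the labels.

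Symbols came from GENCODE for GRCm38 (52403 of 52550 identifiers matched). The 46 genes and all lists were chosen with earlier results of these data known. From the deposited FPKM, log2(FPKM + 1) was computed, and the 11564 genes that reached 1 FPKM in 3 or more samples went into limma 3.58.1 (R 4.3.3, empirical Bayes with an intensity trend, two-sided, genotype only, Benjamini-Hochberg adjustment). Fold changes on this scale understate those of low genes. The script was tested on simulated data. Python 3.11.15 with numpy 2.4.6, pandas 2.3.3 and matplotlib 3.10.9 served for tables and figures. Intervals and counting errors cover only what they name. The estimated depths of 26.1 to 28.5 M fragments are rough, since 56.8% to 61.5% of the low values examined lay within 0.1 of a whole step.

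Values in every sample are given for genes past the threshold, the leading gene of each role group as listed, the 10 with the smallest p and the 3 with the largest. In each comparison list the gene with the smallest p is named, for some lists with only its log2 fold change and adjusted p. Zfp90 was given as a check of the labels, and Espl1, Pttg1, Top2a, S100a8 and S100a9 were added after their values were seen. Alternatives were no filter, a pseudocount of 0.1, median ratio scaling, quantile normalization, a replicate block, an adjusted threshold of 0.1 and leaving out each sample. Leaving out Zfp90ΔIEC replicates 2 and 3 together was added after the data were seen. The other experiments of the study were not analysed here.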

Additional observations from a re-analysis of the deposited data

How the results depend on the processing

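In every setting 45 of the 46 genes were higher in Zfp90ΔIEC. Of the 46, 1 gene (Mki67) passed the adjusted threshold of 0.05 in limma. The count was 1 with median ratio scaling, and 0 with a pseudocount of 0.1, with no filter on low values, with quantile normalization and with each sample left out in turn, and 10 passed at an adjusted p under 0.1. Among all genes tested, 23 passed, against 13 with a pseudocount of 0.1, 15 with no filter and 10 (without Zfp90fl/fl replicate 2) to 21 with a sample left out. The cause was not tested. Without Zfp90ΔIEC replicates 2 and 3 together, 0 of the 46 and 42 of all genes passed, the median log2 fold change was 0.206 and the log2 ratio of sums 0.208, with 1 sample against 3. Every Zfp90ΔIEC sample was higher for 37 of the 46 genes on the deposited values. That number was 38 after quantile normalization and 40 under median ratio scaling. It was 37 to 44 with samples left out, where it cannot fall, so that this range is no check.

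Samples with the same replicate number had deviations that correlated at 0.194, 0.11 and 0.078, so that the numbers were not taken as pairs, although each sample correlated best with its own number. With the replicate block, 47 of all genes and 0 of the 46 passed, and the smallest adjusted p of the 46 was 0.0748 (Mki67 0.0832). Of the 46, 43 then had an unadjusted p under 0.05, against 16.2% of all genes tested, either direction. Of the comparison lists, which held no call in the filtered fit by genotype only, the block gave 4 colonocyte markers (Slc26a3, Car1 and Guca2a higher, Ms4a12 lower, adjusted p 0.0403 to 0.0487). Omitting the filter gave Itgam.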
